A study of Mus musculus with 4 samples.

Results

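Expression of 10 genes of the guanylate-binding protein (GBP) and immunity-related GTPase (IRG) families was measured in marginal zone macrophages sorted as SIGN-R1-positive cells with low CD11b and no I-Ab from the spleens of BXD2 mice, an inbred strain that develops lupus-like autoimmunity. The genes were Gbp2, Gbp3, Gbp5, Gbp6, Gbp7, Irgm1, Irgm2, Igtp, Iigp1 and Ifi47, taken by symbol from 19057 genes named on the array, and they were read by 20 probes in all. There were 4 single-colour bead arrays, each made from the cells of 2 mice aged 2.5 months. One array came from BXD2-Ifnar-/- mice, which lack the type I interferon receptor, after an injection of PBS (Ifnar-/- below). Another came from BXD2 mice given 25 µg per mouse of sLTβR-Fc, a soluble decoy of the lymphotoxin β receptor, into a vein. The remaining pair came from BXD2 mice given PBS (PBS 1 and PBS 2). The cells were taken 10 hours after the injections, and all groups share the BXD2 background. The labels give no group treated with a control Fc protein, so receptor blockade and any other action of the injected protein cannot be told apart. The labels do not say which mice or cultures separate the PBS arrays, so p-values measure the spread between these 2 arrays alone, which may be technical.

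GBPs and IRGs are GTPases whose transcription is switched on by interferons. Interferon-γ signalling acts on GAS elements, and type I interferon acts through the ISGF3 complex, which binds interferon-stimulated response elements (ISREs), as do factors of the IRF family. In macrophages of the mouse the proteins assemble on the vacuoles and membranes of bacteria and protozoa, disrupt them and expose microbial products to inflammasomes. Within the IRG family Irgm1, Irgm2 and Igtp (Irgm3) are regulators that sit on the cell's own membranes and hold the effector GTPases, such as Iigp1 (Irga6), in check. Ifi47 (Irgd) belongs to the same family.

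The promoter sequences are shown because the GTPase genes respond to interferon through these elements. RefSeq promoter windows (GRCm38.p6, from 250 bases before to 50 bases after the start) were used for 8 of the 10 genes, Gbp3 having 2. No window of Gbp6 or Iigp1 was used, so the counts of matches do not cover these genes. The windows were searched for an ISRE core, which is GAAA, any 2 bases and GAAA again, on either strand. They were also searched for a GAS element, TTCNNNGAA, which reads the same on both strands. The ISRE core occurred in the windows of 7 of the 8 genes, all but Ifi47, and in 3.99% of the 27025 genes with a window. A GAS match occurred in 4 of the 8, Gbp5, Gbp7, Irgm2 and Igtp, each together with an ISRE core, against 9.55% of all genes for GAS and 0.54% for both in 1 window. A match describes letters and is not evidence of binding. The 4 windows below, of the gene with the largest difference and of the 3 IRG regulators, give the 250 bases before the start, 5′ to 3′ in the direction of the gene, with ISRE and GAS matches in capitals.
Gbp5, chr3:142496684-142496933, plus strand: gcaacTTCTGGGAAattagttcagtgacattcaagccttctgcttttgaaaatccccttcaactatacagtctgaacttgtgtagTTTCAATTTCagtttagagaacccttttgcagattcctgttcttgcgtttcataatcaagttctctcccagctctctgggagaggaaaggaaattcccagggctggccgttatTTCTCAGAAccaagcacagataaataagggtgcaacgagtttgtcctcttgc
Irgm2, chr11:58214727-58214976, plus strand: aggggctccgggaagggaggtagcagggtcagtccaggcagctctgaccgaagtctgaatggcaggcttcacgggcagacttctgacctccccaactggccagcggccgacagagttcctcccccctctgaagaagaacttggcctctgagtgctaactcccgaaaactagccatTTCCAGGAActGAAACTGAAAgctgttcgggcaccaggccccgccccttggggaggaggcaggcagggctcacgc
Igtp, chr11:58199306-58199555, plus strand: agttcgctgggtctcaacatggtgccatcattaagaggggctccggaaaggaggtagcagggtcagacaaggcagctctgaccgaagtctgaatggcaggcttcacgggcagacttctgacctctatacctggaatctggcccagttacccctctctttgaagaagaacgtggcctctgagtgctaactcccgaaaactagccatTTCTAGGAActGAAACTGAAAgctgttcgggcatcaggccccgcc
Irgm1, chr11:48871421-48871670, minus strand: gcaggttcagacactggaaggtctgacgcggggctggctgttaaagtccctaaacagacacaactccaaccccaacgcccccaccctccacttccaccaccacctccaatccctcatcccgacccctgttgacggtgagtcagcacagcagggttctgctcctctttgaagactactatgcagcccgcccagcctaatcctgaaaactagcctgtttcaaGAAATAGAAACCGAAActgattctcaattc

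In Gbp5 the GAS matches began 245 and 52 bases before the start and the ISRE match 165 bases before it. In Irgm2 and Igtp a GAS match was followed by an ISRE match, beginning 75 and 64 bases before the start in Irgm2 and 45 and 34 bases before it in Igtp. These genes are neighbours on chromosome 11, and their windows were 91.1% identical over 271 aligned columns, with a longest identical run of 61 bases. In Irgm1 a pair of ISRE matches overlapped, beginning 30 and 24 bases before the start. Gbp5, Gbp7, Gbp3 and Gbp2 lie in that order, with Gbp2b between the last pair, in the cluster on chromosome 3, and in Gbp7, Gbp3 and Gbp2 the ISRE match began 53, 45 and 59 bases before the start. It is printed for these genes with 10 bases on either side, in the direction of the gene, to compare the sites. A further match overlaps that of Gbp3.
Gbp7: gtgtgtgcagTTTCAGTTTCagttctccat
Gbp3: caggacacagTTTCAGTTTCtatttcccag
Gbp2: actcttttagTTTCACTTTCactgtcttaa

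The authors' linear intensities were put on a common scale by quantile normalisation, held at a minimum of 111 and compared as log2 differences, with 1 brightest probe standing for a gene. Of the 10 genes, 8 were above background on every array and entered the test with 10765 genes in all. Gbp6 was not above background on any array, and its deposited values lay between 0.827 and 0.872 times the background limits. Iigp1 had 4 probes, of which the brightest read 1.02 and 1.09 times the limit on the PBS arrays and 1.10 times in sLTβR-Fc cells and was not above background in Ifnar-/- cells. The Ifnar-/- reading was at least 1.05-fold below the PBS mean. Neither gene was tested. A gene is called higher or lower here when the adjusted p of limma (Benjamini-Hochberg over all genes tested) was below 0.05. The fit takes its spread from the PBS pair, with 1 residual degree of freedom, and assumes that the lone arrays vary as that pair does. An exact permutation test of 1 array against 2 cannot give a p below 0.333. Because intensities contain background, differences of dim probes are understated.

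**Figure D1:**
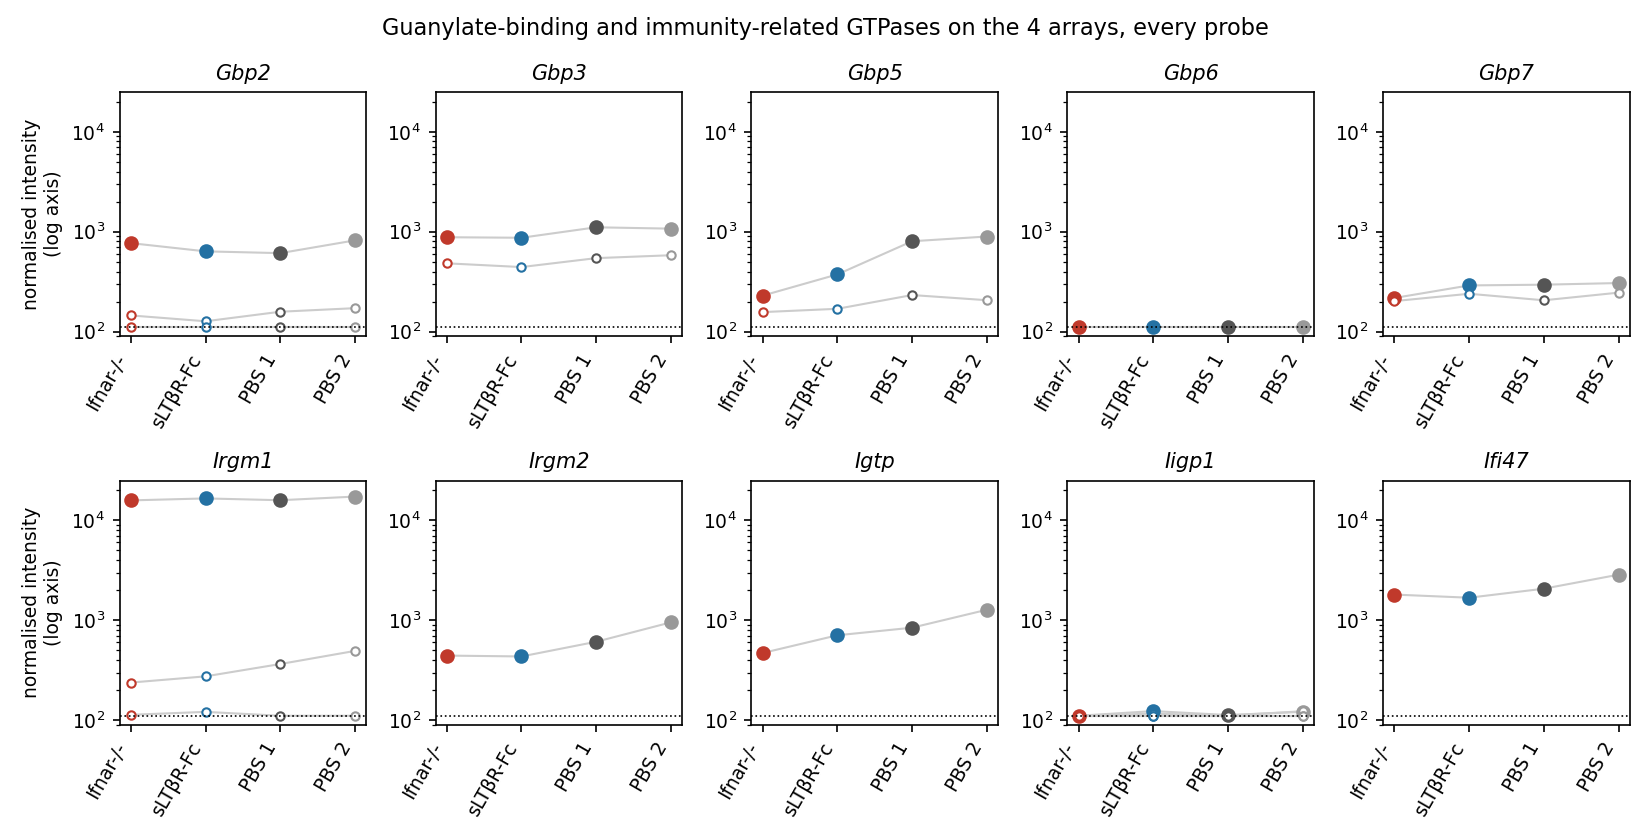
Normalised intensity (log axis) of every probe of the 10 genes on the Ifnar-/-, sLTβR-Fc, PBS 1 and PBS 2 arrays. Filled points are the brightest probe of a gene, open points its further probes, grey lines join the readings of 1 probe and the dotted line is the floor of 111. The brightest Gbp5 probe reads 230 and 374 in Ifnar-/- and sLTβR-Fc cells, against 803 and 896 on the PBS arrays, while Gbp6 stays at the floor.

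In Ifnar-/- cells Gbp5, Igtp and Irgm2 were called lower, 3 of the 8 GTPase genes tested and none higher, where 9.44% of all genes tested were called lower and 9.05% higher. The median log2 difference of the 8 genes from the PBS mean was -0.45, and that of all genes tested was 0.023. In these cells 7 of the 8 read below both PBS arrays, as did 36.1% of all genes tested. Gbp5 was the only one of them at least 2-fold below both PBS arrays, a size that 0.943% of genes above background on at least 1 array reached, and none was 2-fold above both (0.567% of genes). In sorted cells measured in bulk, fewer cells that carry a transcript cannot be told apart from less of it per cell.

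In sLTβR-Fc cells Gbp5, Irgm2, Igtp and Ifi47 were called lower, 4 of the 8 and none higher, where 9.24% of all genes tested were called lower and 13.2% higher. The median log2 difference was -0.43, against 0.025 for all genes tested. It was -0.57 without PBS 1 and -0.28 without PBS 2. Of the 8, 6 read below both PBS arrays, as did 36.6% of all genes tested, and Gbp5 alone was 2-fold below both (0.471% of genes) and none 2-fold above both (1.01%). Both comparisons use the same PBS arrays.

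The calls depended on the filter and the scaling. They were lost for all 8 genes when the fit held the genes above background on at least 1 array, and when arrays were scaled to the same upper quartile. In those fits limma called 0 genes in all, Gbp5 having an adjusted p of 0.213 and 0.178 in Ifnar-/- cells and of 0.16 and 0.0666 in sLTβR-Fc cells. At an unadjusted p under 0.05 the wider filter had 3 of 9 GTPase genes in Ifnar-/- cells, where 19.6% of all its genes passed, and 2 of 9 in sLTβR-Fc cells, where 23.2% passed. Upper-quartile scaling had 3 of 8 in Ifnar-/- cells, beside 23.0% of all genes, and 5 of 8 in sLTβR-Fc cells, beside 39.4%. In the values as deposited, with no scaling, 5 of the 8 genes were called lower in Ifnar-/- cells and 7 in sLTβR-Fc cells. All genes were then called 1640 lower and 153 higher in Ifnar-/- cells, where scaled values gave 1016 and 974, and 4628 lower and 170 higher in sLTβR-Fc cells, where scaled values gave 995 and 1418. Without scaling the median of all genes was -0.17 in Ifnar-/- cells and -0.38 in sLTβR-Fc cells, and that of the 8 genes was -0.76 and -1.13.

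The PBS arrays stood further apart for these genes than for most. PBS 2 was above PBS 1 in 7 of the 8, and their median absolute log2 gap was 0.29, against 0.11 over all genes tested. Each gene was also held against its own gap between the PBS arrays. A difference from the nearer PBS array that exceeds the gene's own gap was found for Gbp5, Igtp, Gbp7 and Gbp3 in Ifnar-/- cells. In sLTβR-Fc cells it was found for Gbp5 and Gbp3. Of all genes tested 23.6% and 23.8% were lower by that measure. Irgm2 and Ifi47, although called, were not among them on either array. The standard errors below come mostly from the variance shared over all genes, and for Igtp, Irgm2 and Ifi47 they do not reflect the wider gap between the PBS arrays.

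**Figure D2:**
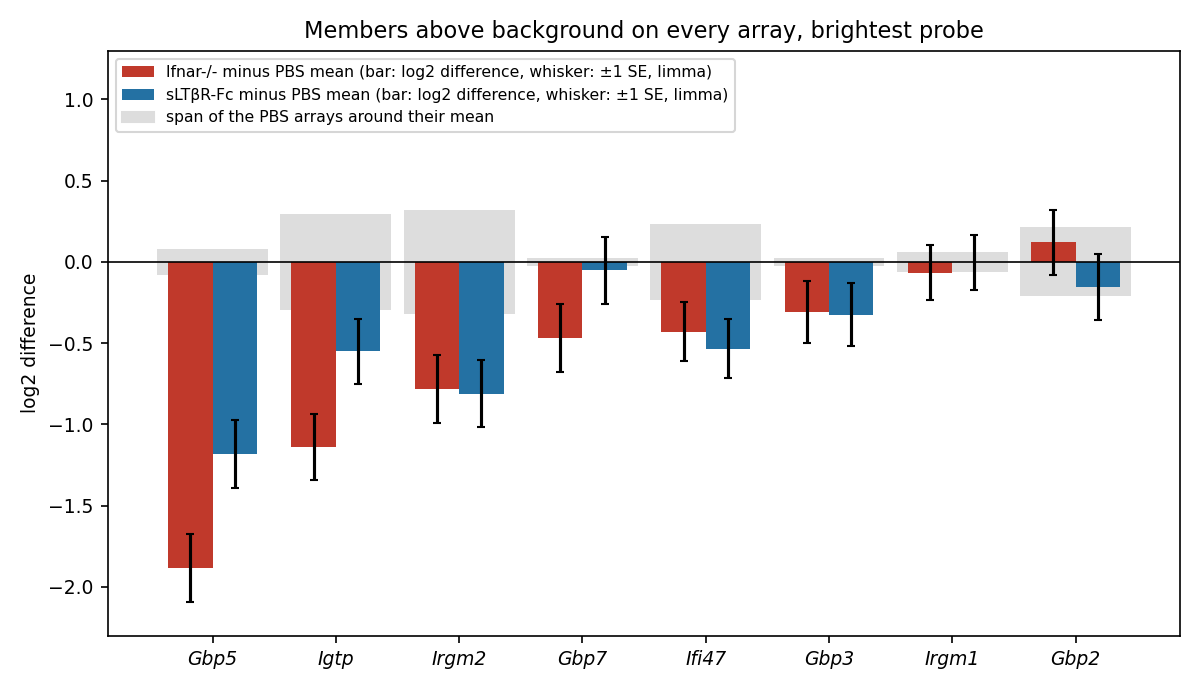
Log2 difference of the 8 tested genes from the PBS mean in Ifnar-/- cells (red) and the sLTβR-Fc array (blue), with whiskers of 1 SE from limma. Grey boxes span the PBS arrays around their mean. Gbp5 is the lowest on both arrays (-1.89 and -1.18), and the grey boxes of Irgm2, Igtp, Ifi47 and Gbp2 are the widest (gaps between the PBS arrays of 0.64, 0.60, 0.47 and 0.42).

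Among the GBPs, Gbp5 encodes a prenylated member of the family that promotes inflammasome responses. Its brightest probe read 230 in Ifnar-/- cells, 374 in sLTβR-Fc cells, and 803 and 896 on the PBS arrays. Both lone arrays were well below both PBS arrays, which lay close together. The log2 difference was -1.89 ± 0.21 (SE, 2 PBS arrays and 1 Ifnar-/- array), a 3.69-fold lower level with a limma adjusted p of 2.42e-15, and -1.18 ± 0.21 in sLTβR-Fc cells, 2.27-fold lower with an adjusted p of 1.34e-06. Among the 10765 genes tested Gbp5 had rank 25 from the lowest in Ifnar-/- cells and rank 56 in sLTβR-Fc cells. The 2 lone arrays also differed from each other, Gbp5 being 0.70 ± 0.24 lower on the log2 scale in Ifnar-/- cells (limma adjusted p 0.0297). It was the only one of the 8 called in that direct comparison, in which 9.12% of all genes were lower and 6.7% higher. This call held in 3 of 9 other settings with a test, over which its adjusted p ran between 0.0141 and 0.378. Among these 3 is the setting that reads Irgm1 from another probe, which leaves the Gbp5 readings unchanged and is no check of the call.

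The further Gbp5 probe was dimmer and showed smaller differences in the same direction. It read 157 in Ifnar-/- cells, 169 in sLTβR-Fc cells, and 233 and 207 on the PBS arrays. With every probe tested on its own it was called lower in Ifnar-/- cells (log2 -0.48, adjusted p 0.0357) and missed the threshold in sLTβR-Fc cells (-0.37, adjusted p 0.0944). Over all alternatives tried, the log2 difference of Gbp5 stayed between -2.20 and -1.18 in Ifnar-/- cells and between -1.83 and -0.78 in sLTβR-Fc cells.

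Gbp2, another prenylated GBP that coats vacuoles of Toxoplasma gondii in mouse cells, did not follow Gbp5. It read 769 in Ifnar-/- cells, 636 in sLTβR-Fc cells, and 611 and 820 on the PBS arrays, so that both lone arrays fell between the PBS arrays. Its log2 difference was 0.12 ± 0.20 in Ifnar-/- cells and -0.15 ± 0.20 in sLTβR-Fc cells (limma adjusted p 0.746 and 0.642), and the value in Ifnar-/- cells turned to -0.18 in the values as deposited and to -0.092 without PBS 1. A dimmer Gbp2 probe read 145 in Ifnar-/- cells, 127 in sLTβR-Fc cells, and 158 and 172 on the PBS arrays. Tested on its own, it was called lower in sLTβR-Fc cells (log2 -0.38, adjusted p 0.0168), and a further probe was not above background on any array.

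Gbp3 and Gbp7 encode GBPs that also gather on pathogen vacuoles. Gbp3 read 881 in Ifnar-/- cells, 871 in sLTβR-Fc cells, and 1108 and 1074 on the PBS arrays. Both lone arrays were lower by about the same amount, log2 -0.31 and -0.33, without passing the threshold (adjusted p 0.286 and 0.229), and the further probe gave -0.22 and -0.35. Gbp7 read 217 in Ifnar-/- cells, 290 in sLTβR-Fc cells, and 295 and 307 on the PBS arrays. Its log2 difference was -0.47 ± 0.21 in Ifnar-/- cells (adjusted p 0.101) and -0.052 ± 0.21 in sLTβR-Fc cells (adjusted p 0.897). The further Gbp7 probe gave -0.15 and 0.090. The difference between the Ifnar-/- and sLTβR-Fc arrays, -0.42 ± 0.24, did not pass the threshold either (adjusted p 0.251).

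Among the IRG regulators, Igtp showed the largest difference in Ifnar-/- cells and Irgm2 in sLTβR-Fc cells. Igtp read 470 in Ifnar-/- cells, 707 in sLTβR-Fc cells, and 842 and 1273 on the PBS arrays. The Ifnar-/- array was below both PBS arrays, and the sLTβR-Fc array was not far below PBS 1. The log2 difference was -1.14 ± 0.20 in Ifnar-/- cells (2.20-fold lower, limma adjusted p 9.63e-07), -0.84 from PBS 1 and -1.44 from PBS 2. In sLTβR-Fc cells it was -0.55 ± 0.20 (adjusted p 0.0328), -0.25 from PBS 1 and -0.85 from PBS 2, and this call was lost in the test of every probe on its own (adjusted p 0.0851). The lone arrays did not differ from each other past the threshold (log2 -0.59 ± 0.23, adjusted p 0.0636).

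Irgm2 was called lower on both lone arrays. It read 443 in Ifnar-/- cells, 434 in sLTβR-Fc cells, and 609 and 953 on the PBS arrays. The lone arrays nearly coincided, and their log2 difference from the PBS mean was -0.78 ± 0.21 (limma adjusted p 0.00234) and -0.81 ± 0.21 (adjusted p 0.00135). Measured against PBS 1 these were -0.46 and -0.49, and against PBS 2 -1.10 and -1.13.

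The probes of Irgm1, the IRG regulator whose loss leaves mice open to intracellular bacteria, disagreed. The brightest read 15810 in Ifnar-/- cells, 16545 in sLTβR-Fc cells, and 15874 and 17260 on the PBS arrays, with log2 differences of -0.066 ± 0.17 and -0.00066 ± 0.17 (adjusted p 0.845 and 0.998), the second becoming 0.057 under scaling to the upper quartile. A further Irgm1 probe read 238 in Ifnar-/- cells, 275 in sLTβR-Fc cells, and 365 and 493 on the PBS arrays. Tested on its own it was called lower on both, at log2 -0.83 (adjusted p 0.00791) and -0.63 (adjusted p 0.0381). The third Irgm1 probe was not above background on the PBS arrays and read 113 and 121 in Ifnar-/- and sLTβR-Fc cells. When Irgm1 was read from its next brightest probe, a choice made after seeing the data, 4 of the 8 genes were called lower in Ifnar-/- cells and 5 in sLTβR-Fc cells. Which sequence each probe reads, and whether probes tell close relatives of these families apart, was not tested.

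Ifi47 read 1806 in Ifnar-/- cells, 1680 in sLTβR-Fc cells, and 2068 and 2857 on the PBS arrays. Both lone arrays were below both PBS arrays, by less than the PBS arrays differed. The log2 difference was -0.43 ± 0.18 in Ifnar-/- cells (adjusted p 0.0865) and -0.53 ± 0.18 in sLTβR-Fc cells (adjusted p 0.0223). Against PBS 1 alone these values were -0.20 and -0.30, and against PBS 2 alone -0.66 and -0.77, and the call in sLTβR-Fc cells was lost in the test of every probe on its own (adjusted p 0.0679). Taken by family, the 4 tested GBPs had a median log2 difference of -0.39 in Ifnar-/- cells and -0.24 in sLTβR-Fc cells, and the 4 tested IRGs one of -0.61 and -0.54.

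**Figure D3:**
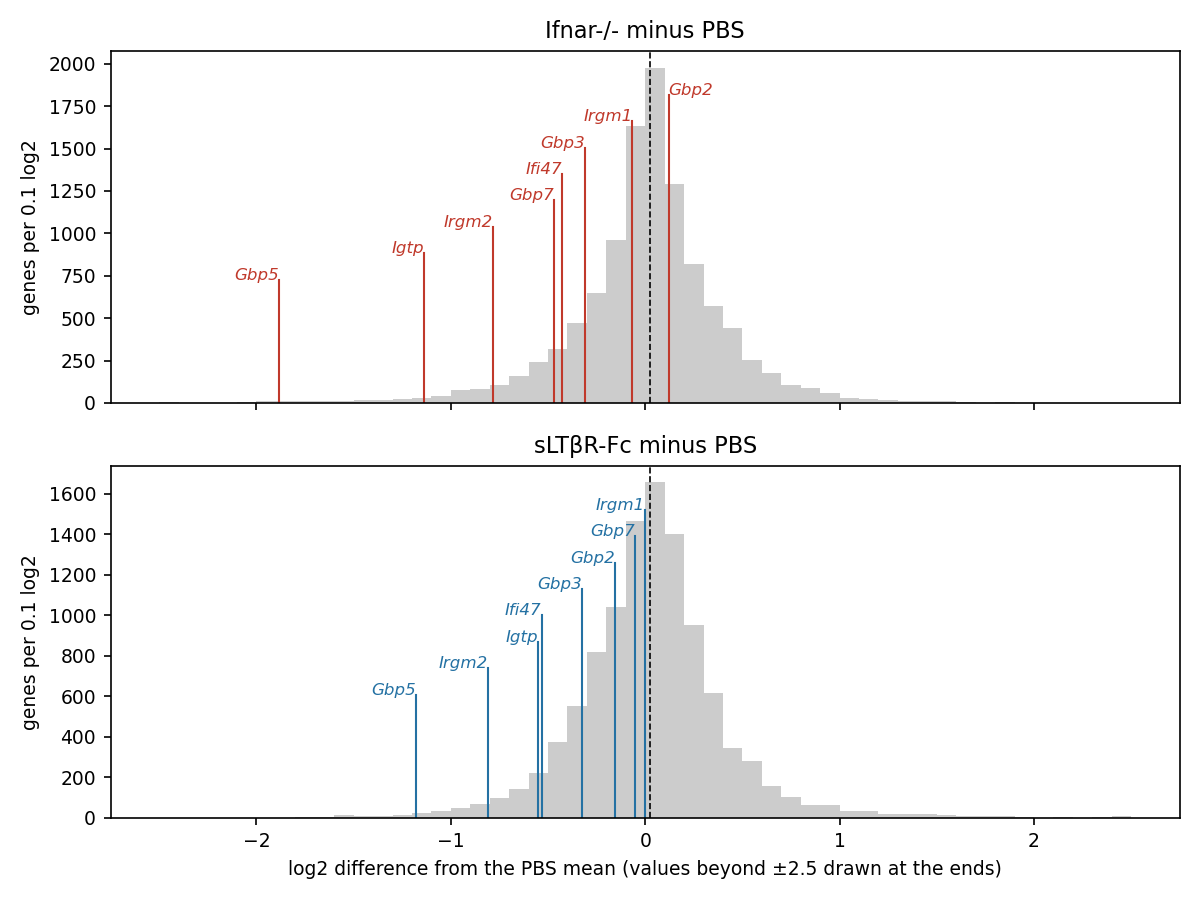
Distribution of the log2 difference from the PBS mean over the 10765 genes tested, for the Ifnar-/- array (top) and the sLTβR-Fc array (bottom), with the 8 GTPase genes marked and the median of all genes dashed. In Ifnar-/- cells 7 of the 8 lie left of 0 and Gbp2 lies right of it at 0.12, and in sLTβR-Fc cells Irgm1 and Gbp7 lie close to 0.

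Every probe was also tested on its own, an alternative added after seeing the data. Of the 20 probes, 13 were above background on every array, 4 on none and 3 on some. Tested one by one, 5 of the 13 were called lower in Ifnar-/- cells, where 7.62% of 15967 probes were, and 4 in sLTβR-Fc cells, where 8.7% were, and none was called higher. In Ifnar-/- cells 12 of the 13 read below both PBS arrays, as did 36.3% of all probes tested, and in sLTβR-Fc cells 10 did, against 39.4%. Probes of 1 gene share their transcript and are not replicates.

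Further interferon-inducible GTPases were measured beside the 10. Of 9 tested, 2 were called lower in Ifnar-/- cells, beside 9.44% of all genes, and 1 in sLTβR-Fc cells, close to the 9.24% of all genes. None was called higher, and the medians were 0.023 and -0.088. Tgtp1, an effector IRG with a close copy, Tgtp2, that its probe may also read, read 171 in Ifnar-/- cells, 175 in sLTβR-Fc cells, and 235 and 247 on the PBS arrays (log2 -0.49 ± 0.17 and -0.47 ± 0.17, adjusted p 0.0267 and 0.034). Mx2, a dynamin-like antiviral GTPase, read 116 in Ifnar-/- cells, 165 in sLTβR-Fc cells, and 136 and 179 on the PBS arrays, and was called lower in Ifnar-/- cells (log2 -0.43, adjusted p 0.000941). Mx2 also differed between the lone arrays (log2 -0.51 ± 0.12, adjusted p 0.000943). Gbp2b, the neighbour of Gbp2 and Gbp3, read 409 in Ifnar-/- cells, 332 in sLTβR-Fc cells, and 290 and 307 on the PBS arrays, and did not pass the threshold (adjusted p 0.131 and 0.663).

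Lists of other genes of the pathway were set beside the GTPases. Shares of all genes tested were 9.44% lower and 9.05% higher in Ifnar-/- cells, and 9.24% lower and 13.2% higher in sLTβR-Fc cells. Of 20 tested genes listed as preferring type I interferon, 16 were called lower in Ifnar-/- cells (median -0.86) and 3 in sLTβR-Fc cells (median -0.26), and none was called higher. Ifi27l2a, an interferon-induced gene of this list, was lower in Ifnar-/- cells by a log2 of -2.09 ± 0.18 (adjusted p 2.26e-23), and Cmpk2, a nucleotide kinase gene, in sLTβR-Fc cells by -0.61 ± 0.21 (adjusted p 0.026). Of 12 tested genes listed as preferring interferon-γ, 8 were called higher in Ifnar-/- cells and none lower (median 0.59), and 1 was called higher and 1 lower in sLTβR-Fc cells (median 0.17). A place on either list does not show which interferon acted on a gene here. Cd274, which encodes the checkpoint ligand PD-L1, was higher in Ifnar-/- cells (log2 0.84 ± 0.20, adjusted p 0.000485), and Ccl5, a chemokine gene that also stands among the NK cell markers, was lower in sLTβR-Fc cells (log2 -0.60 ± 0.17, adjusted p 0.00503). Upp1, uridine phosphorylase, was higher on both (log2 1.68 and 1.78, adjusted p 7.48e-12 and 3.43e-13). The GBPs and IRGs respond to both interferons.

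**Figure D4:**
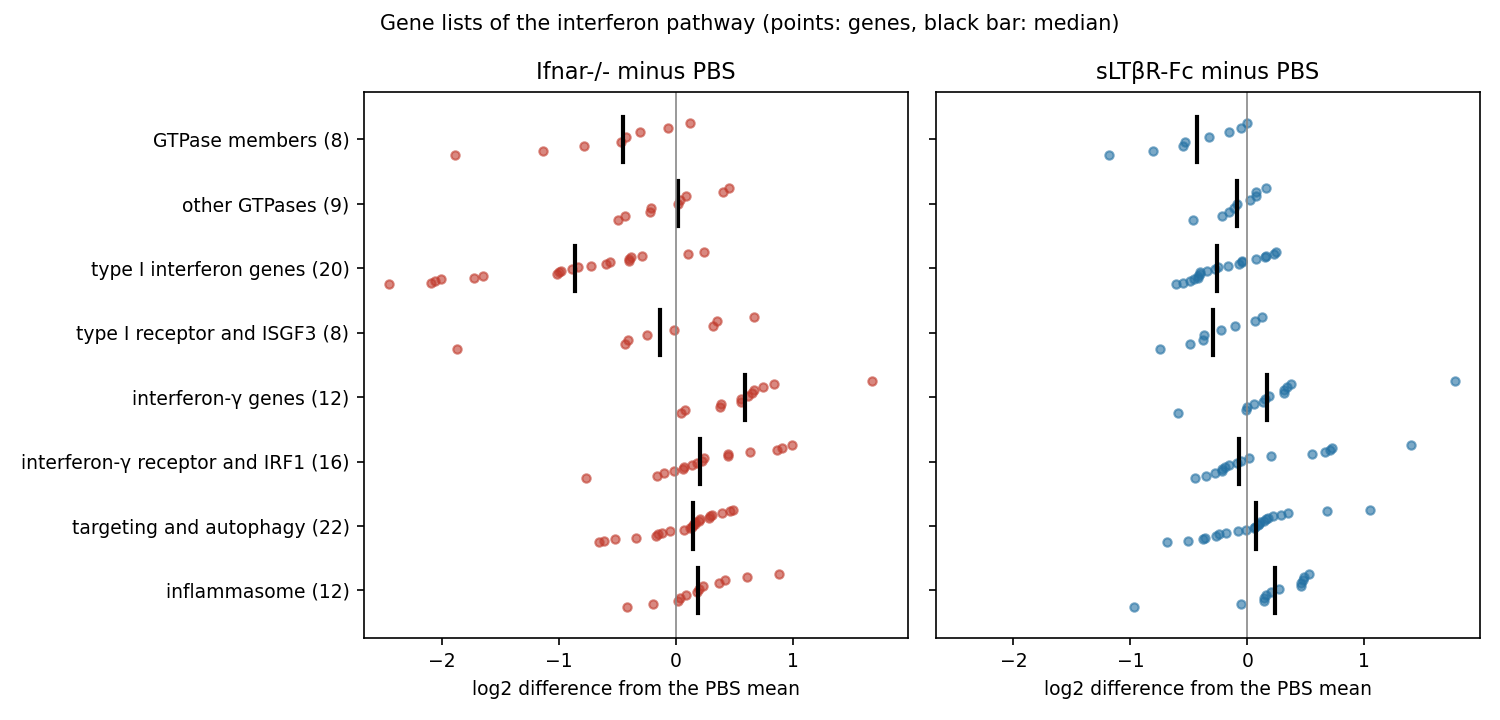
Log2 difference from the PBS mean of each tested gene (points) of 8 lists in Ifnar-/- cells (left) and the sLTβR-Fc array (right), with the list median as a black bar and the number tested in brackets. In Ifnar-/- cells the GTPase median (-0.45) lies between those of the type I interferon genes (-0.86) and the interferon-γ genes (0.59). So do the medians of the other lists shown and that of all genes tested (0.023), so this position is not particular to the GTPases.

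Of 16 tested genes of the interferon-γ receptor and IRF1 axis, 1 was called lower and 4 higher in Ifnar-/- cells, and none lower and 5 higher in sLTβR-Fc cells. Of 8 of the type I interferon receptor and ISGF3 axis, 1 was lower and 2 higher in Ifnar-/- cells, and 2 were lower and none higher in sLTβR-Fc cells. Among all genes tested 9.44% were called lower and 9.05% higher in Ifnar-/- cells, and 9.24% and 13.2% in sLTβR-Fc cells. A single call among 8 or 16 genes is near those shares. Ifng, which encodes interferon-γ, read 490 in Ifnar-/- cells, 951 in sLTβR-Fc cells, and 353 and 366 on the PBS arrays, and was called higher in sLTβR-Fc cells (log2 1.40 ± 0.21, limma adjusted p 5.35e-09) and missed the threshold in Ifnar-/- cells (0.45, adjusted p 0.127). Ifng differed between the lone arrays as well, by -0.96 ± 0.24 for Ifnar-/- minus sLTβR-Fc (adjusted p 0.00173). Ifngr1, the ligand-binding receptor chain, was called higher on both, at log2 0.91 and 0.71 (adjusted p 0.000325 and 0.00654). Ifngr2, the second chain, was called lower in Ifnar-/- cells, at 6416 against 11801 and 10056 on the PBS arrays (log2 -0.76 ± 0.17, adjusted p 0.000214), and its further probes gave -1.25 and -1.23. In the reference annotation Ifngr2 lies beside Ifnar1 on chromosome 16, and the part of that position in the Ifngr2 values was not tested.

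Ifnar1 read 191 in Ifnar-/- cells, 117 in sLTβR-Fc cells, and 157 and 149 on the PBS arrays, and was called higher in Ifnar-/- cells and lower in sLTβR-Fc cells (log2 0.32 and -0.38, adjusted p 0.027 and 0.00524). The stretch of the gene that its probe reads is unknown here, so the probe does not check the genotype. Ifnar2 did not pass the threshold on either array (adjusted p 0.172 and 0.078). Irf9, the DNA-binding part of ISGF3, was called lower in sLTβR-Fc cells (log2 -0.74 ± 0.20, adjusted p 0.00248), with a further probe at 0.19, and Irf8, an IRF of myeloid and B cells, was called higher in Ifnar-/- cells (log2 0.63, adjusted p 0.00364). Irf1 and Stat2 did not pass the threshold on either array, with log2 differences of -0.098 and -0.22 for Irf1 and -0.014 and -0.11 for Stat2. Usp18, which dampens type I interferon signalling, was called lower in Ifnar-/- cells (log2 -1.87 ± 0.22, adjusted p 3.35e-14).

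Of 22 tested genes of GTPase targeting, prenylation and autophagy conjugation, 2 were called lower and none higher in Ifnar-/- cells, among them Fntb, a subunit of the farnesyltransferase (log2 -0.66 ± 0.19, adjusted p 0.00761). In sLTβR-Fc cells 2 were called lower and 3 higher. These shares are near those of all genes, 9.44% lower in Ifnar-/- cells, and 9.24% lower and 13.2% higher in sLTβR-Fc cells. Sqstm1, which encodes the autophagy adaptor p62, was higher there (log2 1.05 ± 0.20, adjusted p 1.08e-05) and Trim21, a ubiquitin ligase gene, was lower (-0.69 ± 0.21, adjusted p 0.0096). Of 12 tested inflammasome genes, 2 were called higher in Ifnar-/- cells, Il1b and Mefv (log2 0.88 and 0.61), beside 9.05% of all genes. However, the PBS arrays read 890.3 and 359.7 for Il1b. In sLTβR-Fc cells Aim2, the sensor of cytosolic DNA, was lower (log2 -0.97 ± 0.21, adjusted p 0.000141) and Mefv was higher (0.49, adjusted p 0.00292). A single call in either direction among 12 genes is near the 9.24% lower and 13.2% higher of all genes.

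Markers of other cell types moved on the same arrays. Their counts stand beside 9.44% of all genes tested called lower and 9.05% higher in Ifnar-/- cells. In sLTβR-Fc cells the shares of all genes were 9.24% lower and 13.2% higher. B cell markers had 6 of 13 tested called higher in Ifnar-/- cells and 5 called lower in sLTβR-Fc cells, their summed intensity being 32960 and 16138, against 23905 and 22860 on the PBS arrays. T cell markers summed to 15959 in Ifnar-/- cells and 12532 in sLTβR-Fc cells, against 18837 and 22075, with 6 and 8 of 13 called lower and Il7r called higher in Ifnar-/- cells (log2 0.65). NK cell markers summed to 36824 and 24560, against 27479 and 31395, with 7 of 12 higher in Ifnar-/- cells and 4 lower and 1, Nkg7, higher in sLTβR-Fc cells (log2 1.41, adjusted p 2.91e-11). Neutrophil markers summed to 19851 and 72058, against 52119 and 36115, with 10 of 15 lower and 1, Retnlg, higher in Ifnar-/- cells (log2 2.18, adjusted p 4.3e-19), and 6 higher in sLTβR-Fc cells. Eosinophil markers summed to 4456 and 28055, against 5222 and 5901, with 4 of 5 higher in sLTβR-Fc cells. Dendritic cell markers summed to 18997 and 15753, against 16955 and 16335, with 8 of 13 higher in Ifnar-/- cells, and 3 higher and 1 lower in sLTβR-Fc cells. Monocyte markers had 2 of 7 higher in either and 1, Chil3, lower in Ifnar-/- cells (log2 -2.03, adjusted p 6.31e-16). Genes of these lists named for going against their list were chosen after their values were seen. Erythroid markers summed to 13380 in Ifnar-/- cells and 13875 in sLTβR-Fc cells, against 30642 on PBS 1 and 13522 on PBS 2, with 9 and 8 of 13 called lower. By sum both lone arrays were close to PBS 2, and PBS 1 stood apart. Gene by gene they were not close to PBS 2. In Ifnar-/- cells 9 of the 13 read below both PBS arrays and 1 above both, and in sLTβR-Fc cells 8 and 0 did. At least 2-fold below both PBS arrays were 3 in Ifnar-/- cells and 4 in sLTβR-Fc cells, against 0.943% and 0.471% of genes.

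Of the 15 marginal zone macrophage markers 10 were above background on every array, and Cd5l, Msr1 and Siglec1 were not above it on any. In Ifnar-/- cells 2 were called lower and 2 higher, beside 9.44% and 9.05% of all genes. In sLTβR-Fc cells 2 were called lower and none higher, beside 9.24% and 13.2%. Of 12 markers above background on at least 1 array, 1 was 2-fold below and 2 were 2-fold above both PBS arrays in Ifnar-/- cells. Of all genes 0.943% and 0.567% were. The markers summed to 5496 in Ifnar-/- cells and 3582 in sLTβR-Fc cells, against 4928 on PBS 1 and 3308 on PBS 2. Sums of lists with different genes and probes do not measure shares of cells. Cd209b, which encodes the sorted surface protein SIGN-R1, read 152 in Ifnar-/- cells, 145 in sLTβR-Fc cells, and 127 and 130.05 on the PBS arrays. Marco, a scavenger receptor of these cells, read 181 in Ifnar-/- cells, 168 in sLTβR-Fc cells, and 252 and 162 on the PBS arrays. Neither Cd209b nor Marco is among the markers called, so their readings do not stand for the list. The part of any of these cell types in the GTPase values was not tested.

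The profile of the 8 tested genes over the 4 arrays, as the mean of their log2 values centred on the PBS mean, was -0.62 in Ifnar-/- cells, -0.45 in sLTβR-Fc cells, and -0.15 and 0.15 on the PBS arrays. Among 1668 other genes whose largest difference from the PBS mean on any array was at least the largest of this profile, the nearest were Slc16a5, Pitrm1, Tex9, Fam20b and Dlg5, at root mean square distances between 0.012 and 0.090, and 9 genes lay within 0.1. With 4 arrays such a likeness is a description only.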

How the data were processed

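Per the labels' protocols, RNA extracted with Trizol from flow-sorted cells was labelled with biotin and hybridised to Illumina single-colour arrays, and the submitters' processing notes name GenomeStudio 2011.1. The deposited table gives a linear intensity for each of 45281 probes on each array. How the authors subtracted background or scaled arrays is not stated in the labels. Probes were named by the platform annotation (34885 with 1 symbol, 18 with several, 10378 with none). Of 19057 symbols 18992 matched the mouse reference table by gene identifier, and all 10 members did.

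The background limit of an array was its most frequent intensity plus the 95% point of the noise below it (106 to 116 over the 4 arrays, with 52.4% to 53.9% of probes above). Intensities were quantile normalised, floored at 111 and converted to log2. The number of arrays limits the precision. Groups came from the labels. limma 3.58.1 (R 4.3.3) fitted 3 group means over 10765 genes above background on all 4 arrays. It used a mean-variance trend and a prior of 409 degrees of freedom. The fit was also run on simulated data in which every gene had the same spread on all 4 arrays. That run cannot check whether the lone arrays vary as the PBS pair does, or whether genes share a variance. The members, lists and tests were chosen with earlier results of these data known. Named genes are the 10 members, the receptors and factors upstream of them, and genes with the largest called differences of each list, not all of which are printed. Some genes of the lists are not reported here. The alternatives were unscaled values, upper-quartile scaling, background subtraction (50 added), 2 wider filters, the median of probes, no trend and leaving out a PBS array. The test of each probe and the choice of the next Irgm1 probe were added after seeing the data.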

Additional observations from a re-analysis of the deposited data

How the results depend on the processing

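No paired analysis was possible because each lone group has 1 array and the labels link none of them to a PBS array. Members called lower by limma numbered 3 (Ifnar-/-), 4 (sLTβR-Fc) and 1 (Ifnar-/- against sLTβR-Fc). They numbered 5, 7 and 0 in the values as deposited, 0, 0 and 0 with upper-quartile scaling, with genes above background on at least 1 array and with no filter, 1, 1 and 0 with the median of probes and 1, 1 and 0 without the trend. All genes called lower then numbered 203 and 286 with the median of probes and 303 and 200 without the trend, against 1016 and 995 in the fit reported (Ifnar-/- and sLTβR-Fc). Background subtraction left these 3 counts at 3, 4 and 1. The fit with no filter still called 23 genes lower and 598 higher in Ifnar-/- cells and 28 and 765 in sLTβR-Fc cells. Its prior was 0.735 degrees of freedom, against 2.39 with upper-quartile scaling and 0.956 with the wider filter, and 409 in the fit reported. The larger counts in deposited values go with a shift of all genes by -0.17 and -0.38. Otherwise the cause was not tested.

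Members 2-fold below every PBS array numbered 1 on either array, 2 and 4 in the values as deposited, 1 and 0 with the median of probes, and 1 to 3 and 1 to 2 when a PBS array was left out, Igtp and Irgm2 joining Gbp5 without PBS 1 (Ifnar-/-) and Irgm2 (sLTβR-Fc). The share of all genes passing this rule was taken only in the main setting (0.943% and 0.471%). The counts under other settings therefore cannot be read as a result about the members. The members' median was -0.76 (Ifnar-/-) and -1.13 (sLTβR-Fc) in the values as deposited, -0.80 with upper-quartile scaling (sLTβR-Fc), and -0.58 to -0.39 and -0.57 to -0.28 when a PBS array was left out. No member was called higher under any setting tried. Signs turned for Gbp2 in Ifnar-/- cells (-0.18 as deposited, -0.031 with the median of probes, -0.092 without PBS 1) and in sLTβR-Fc cells (0.059 without PBS 2), for Gbp7 in sLTβR-Fc cells (0.019 with the median of probes) and for Irgm1 in sLTβR-Fc cells (0.057 with upper-quartile scaling, 0.060 without PBS 2), none of them called. Gbp5 kept its sign in 11 of 11 alternatives in either comparison with PBS and passed the threshold in 6 of 9 with a test. Several of these could not turn its sign. The wider filters, the fit without the trend, the test of each probe and the next Irgm1 probe leave its log2 differences at -1.89 and -1.18. The next Irgm1 probe, counted among the 6, leaves the Gbp5 readings unchanged and is no check of its call. Leaving out a PBS array leaves no residual degree of freedom, so those values carry no test. No array was replicated outside the PBS pair, and dim probes such as those of Gbp6 and Iigp1 have no usable difference.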
